A study of Mus musculus with 58 samples.

Results

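GABAergic interneurons are the inhibitory nerve cells of the cortex, and they are told apart by the genes they transcribe. All of them make GABA from glutamate with the decarboxylases GAD67 and GAD65, and most cortical ones fall into classes marked by parvalbumin, by somatostatin or by vasoactive intestinal peptide. Neuropeptide Y, cholecystokinin, reelin and the calcium-binding proteins calbindin and calretinin mark further subsets that overlap with these classes. Markers of this kind are not all private to interneurons. In the entorhinal cortex (EC), reelin is also made by excitatory cells of layer II, calbindin is also found in excitatory cells of the EC and the dentate gyrus, and cholecystokinin RNA occurs in many excitatory cortical neurons.

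The levels of 10 such markers, *Gad1*, *Gad2*, *Sst*, *Pvalb*, *Vip*, *Npy*, *Cck*, *Reln*, *Calb1* and *Calb2*, were examined in the EC and the primary visual cortex (PVC). The genes were taken by their symbols, and all 10 were among the 31246 genes listed for each region. RNA-sequencing had been performed on 58 libraries from male C57Bl/6 mice aged 14 to 15 months, with 10 *APOE3/3* and 19 *APOE3/4* mice in each region. All of these mice were targeted replacement animals, in which human *APOE* is driven by the promoter of the mouse gene, so neither group carried mouse *Apoe*. The paper derived its mice from 2 separate colonies and does not say which of them the sequenced animals came from. The same 29 animal numbers occurred in both regions. The measurement used here was the authors' mean normalized count of each gene, which is its read count divided by the size factor of the library and averaged over all libraries of a region. Each value is therefore a mean over both genotypes. The comparison of *APOE3/4* with *APOE3/3* mice was not analysed here, and no values of single mice were used. For that reason the regional means carry no error, no test could be run on them, and whether a difference exceeds the spread between mice was not tested.

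The authors normalized the regions separately, and the means of all genes added up to 49385488 for the EC against 27058393 for the PVC. The EC means were therefore brought to the scale of the PVC before the regions were set side by side. The divisor was 1.83, the median ratio of EC to PVC over 12097 genes with a mean of at least 100 in both regions. A gene was taken as higher or lower in a region when the scaled means lay at least 1.5-fold apart. This was applied to the 15861 genes with a mean count of at least 10 averaged over the regions, and all 10 markers were among them. The labelled regions were checked against other genes. *Rspo1* and *Rorb*, genes of the layer 4 of sensory cortex, were 24.2-fold and 2.30-fold lower in the EC, and *Scnn1a* of the same layer was 1.26-fold lower. Of the libraries, 2 in the EC and 5 in the PVC had been sequenced more than once to gain depth.

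Of the 10 markers, 2 were at least 1.5-fold higher in the EC, where 8.13% of all genes were, and 3 were at least 1.5-fold lower, where 5.06% of all genes were. *Reln* and *Calb1* were the higher genes and *Pvalb*, *Vip* and *Npy* the lower ones. The remaining 5, which include both GABA-synthesizing enzymes, lay within 1.5-fold. The median log2 ratio of EC over PVC was −0.09 for the markers and 0.02 for all genes. The markers had a standard deviation over genes of 0.94 against 0.50. *Reln* at 1.76 and *Pvalb* at −1.68 weigh most in the larger value, and the spread of the other markers alone was not computed. These ratios come from bulk tissue, in which fewer cells of a type and less RNA per cell cannot be told apart.

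**Figure D1:**
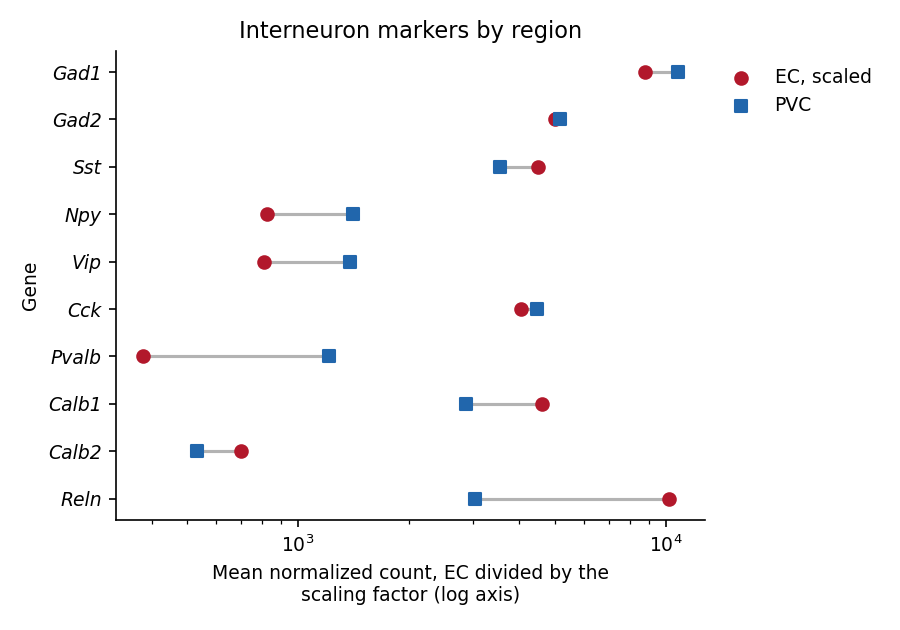
Mean normalized count of each marker (log axis) in the EC, divided by the scaling factor of 1.83 (circles), and in the PVC (squares); each point is the authors' mean over the 29 libraries of a region, and no error bar can be drawn. The points of *Gad2* and *Cck* nearly coincide, those of *Reln* and *Pvalb* lie furthest apart, and *Pvalb* is the marker with the lowest scaled EC level.

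*Gad1* and *Gad2* encode GAD67 and GAD65, the enzymes that make GABA. *Gad1* had a mean normalized count of 16089 in the EC against 10828 in the PVC. On the scale of the PVC its EC level was 8769, which is 1.23-fold lower (log2 ratio −0.30). *Gad2* had means of 9178 and 5143, and its scaled EC level of 5002 differed from the PVC by 1.03-fold (log2 ratio −0.04). The ratio of *Gad1* to *Gad2* within a region does not depend on the scaling between regions. Per kb of exon it was 1.35 in the EC against 1.62 in the PVC. The size of such a ratio depends on the lengths used, and only its change between the regions does not. Per kb of the longest transcript, *Gad1* stood at 4468 and *Gad2* at 1598 in the EC. In the PVC they stood at 3007 and 895. *Gad1* had a mean count above that of 96.8% of the 15861 genes past the count minimum in the EC, and of 97.7% in the PVC.

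Other genes of GABA handling were called about as often as genes in general. Of 8 such genes, 7 were within 1.5-fold, 1 was higher in the EC and none was lower, where 8.13% of all genes were higher and 5.06% lower, and their median log2 ratio was −0.05. *Slc32a1*, the vesicular GABA transporter, had means of 2927 in the EC against 2067 in the PVC (log2 ratio −0.37, the lowest of the 8). The gene outside was *Slc6a13*, a GABA transporter known from the meninges, with means of 1059 and 237 (log2 ratio 1.28). Of 17 transcription factors of the interneuron lineage, 1 was higher and 16 were within 1.5-fold, beside the same shares of all genes, and the median log2 ratio was −0.04. Among them *Lhx6*, which marks the lineage of *Sst* and *Pvalb* cells, had means of 1043 and 559 (log2 ratio 0.02), and *Dlx1* had means of 1484 and 836 (log2 ratio −0.05). The exception was *Nr2f2*, which cells of vessels also express, at 2909 in the EC and 343 in the PVC (log2 ratio 2.21).

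*Pvalb* encodes parvalbumin, the calcium-binding protein of fast-spiking basket and chandelier cells, and it had the lowest regional ratio of the markers. Its mean normalized count was 696 in the EC against 1216 in the PVC, so the PVC was the higher region even before scaling. The scaled EC level of 379 was 3.21-fold lower (log2 ratio −1.68). Of all 15861 genes, 92 (0.58%) had a lower ratio than *Pvalb*. By count, *Pvalb* stood above 67.9% of these genes in the PVC and above 42.1% in the EC. Per kb of exon, it stood above 92.0% in the PVC and 71.7% in the EC of those with an exon length.

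Myelin genes moved with this contrast. All 7 oligodendrocyte genes examined were lower in the EC, where 5.06% of all genes were. Their log2 ratios ran from −1.61 for *Mobp* to −0.97 for *Cnp*, with a median of −1.36. Their summed scaled level was 25357 in the EC against 64376 in the PVC. *Mbp*, the most abundant, had means of 23278 and 32366. Their part in the ratio of *Pvalb* was not tested. Microglia genes had a median log2 ratio of 0.03, endothelial genes of 0.04 and astrocyte genes of 0.21.

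*Sst*, the somatostatin gene, marks interneurons that mostly target dendrites. Its mean was 8259 in the EC against 3538 in the PVC, and the scaled EC level of 4501 was 1.27-fold higher (log2 ratio 0.35), within the 1.5-fold limit. Set against *Pvalb* the contrast was wider. Per kb of exon, *Sst* was 20.6 times *Pvalb* in the EC and 5.06 times *Pvalb* in the PVC, a 4.08-fold difference between the regions that no scaling of the tables can alter. The *Sst* level per kb was 14.2 times that of *Vip* in the EC and 6.51 times in the PVC.

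*Npy* and *Vip* encode neuropeptide Y, which is often made by the *Sst* class and by neurogliaform cells, and vasoactive intestinal peptide, the marker of interneurons that mostly inhibit other interneurons. *Npy* had means of 1508 in the EC against 1407 in the PVC. Its scaled EC level of 822 was 1.71-fold lower (log2 ratio −0.78). *Vip* had means of 1483 and 1386, and its scaled EC level of 808 was likewise 1.71-fold lower (log2 ratio −0.78). Per kb, *Vip* was 0.365 of *Npy* in both regions. A lower ratio than that of *Vip* was found for 3.32% of all genes, so *Vip* and *Npy* were less extreme than *Pvalb*. *Sst*, unlike *Npy*, lay above parity, and its level per kb was 5.18 times that of *Npy* in the EC and 2.38 times in the PVC.

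*Cck*, the cholecystokinin gene, had means of 7434 in the EC against 4457 in the PVC. The scaled EC level of 4052 was 1.1-fold lower (log2 ratio −0.14). Genes of excitatory neurons, which also contain *Cck* RNA, had a median log2 ratio of −0.54. Of 14 such genes, 7 were lower and 2 higher in the EC, beside 5.06% and 8.13% of all genes. The 2 most abundant of them were close to parity. *Camk2a* had a log2 ratio of −0.18 and the vesicular glutamate transporter gene *Slc17a7* of 0.16. Their part in the level of *Cck* was not tested.

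*Reln* encodes reelin, a large secreted protein that is made by Cajal-Retzius cells in development and by interneurons and some excitatory cells in the adult. It had the highest regional ratio of the markers. Its mean normalized count was 18785 in the EC, the highest of the 10 there, and 3027 in the PVC. The scaled EC level of 10238 was 3.38-fold higher (log2 ratio 1.76), and 157 of all 15861 genes (0.99%) had a higher ratio. By count, *Reln* stood above 97.5% of these genes in the EC and above 86.3% in the PVC. Per kb of exon, it stood above 79.7% in the EC and 48.0% in the PVC of those with an exon length. Per kb, *Reln* was 0.449 of *Gad1* in the EC against 0.108 in the PVC, a 4.18-fold difference. The annotated *Reln* exons share 246 of 19845 bases with *Gm10475* on the opposite strand, and reads from there cannot be told apart without strand information.

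*Calb1*, which encodes calbindin, had means of 8457 in the EC against 2867 in the PVC. Its scaled EC level of 4609 was 1.61-fold higher (log2 ratio 0.69), just past the limit, and 6.51% of all genes had a higher ratio. *Calb2*, which encodes calretinin and marks interneurons that overlap with the *Vip* class, had means of 1283 and 531. Its scaled EC level of 699 was 1.32-fold higher (log2 ratio 0.40), on the other side of parity from *Vip*. Per kb *Calb2* was 0.758 of *Vip* in the EC and 0.336 in the PVC.

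Granule cells of the dentate gyrus contain calbindin, so genes of the dentate gyrus and hippocampus were set beside *Calb1*. Of 8 such genes, 5 were higher in the EC, where 8.13% of all genes were, and none was lower, with a median log2 ratio of 0.85. *C1ql2*, a gene of granule cells, had means of 325 in the EC against 50.5 in the PVC (log2 ratio 1.81). *Prox1*, the transcription factor of granule cells and of some interneurons, had means of 410 and 262 (log2 ratio −0.23, the lowest of the 8). *Grp* had means of 375 and 230 (log2 ratio −0.17). Of the less abundant genes, *Dsp* and *Tdo2* had scaled levels 2.01-fold and 1.61-fold higher in the EC, whereas *Lct* had a log2 ratio of 0.11. The summed scaled level of the 8 genes was 8186 in the EC against 4209 in the PVC, of which *Wfs1*, a gene that excitatory cells of the superficial EC also express, made up most, with means of 13559 and 3576. Their part in the levels of *Calb1*, *Calb2* and *Reln* was not tested.

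**Figure D2:**
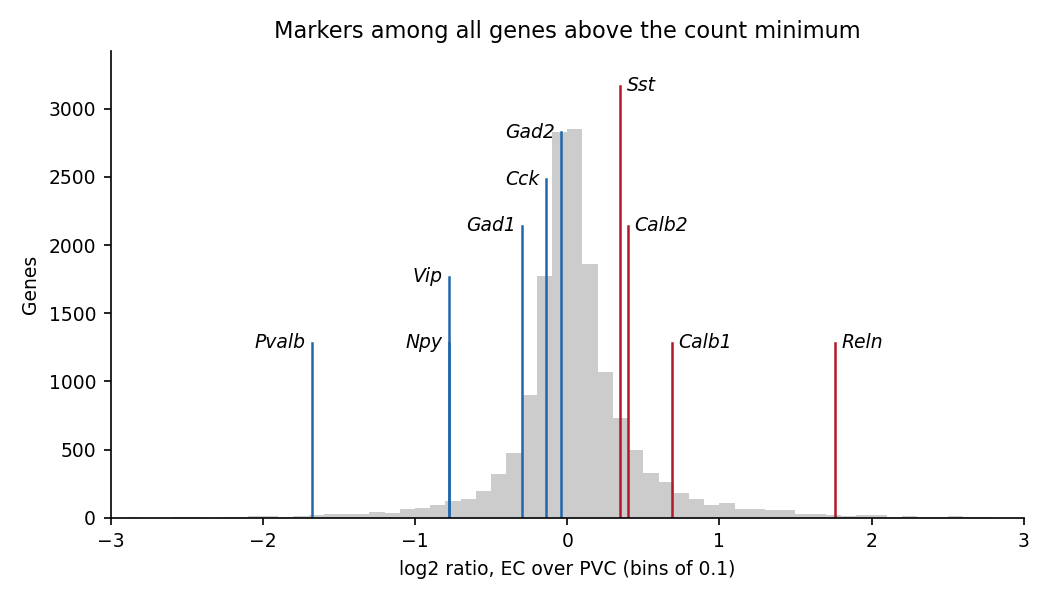
Histogram of the log2 ratio of EC over PVC for the 15861 genes above the count minimum (grey bars, number of genes per bin of 0.1; the 50 genes beyond 3 in either direction are outside the axis), with a line at the ratio of each marker (red above 0, blue below; line heights only separate the names). *Gad2* and *Cck* lie nearest to 0, *Gad1* at −0.30 has 10.9% of the genes below it, and *Reln* at 1.76 and *Pvalb* at −1.68 lie in the tails.

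The scaling was the one choice that could shift all regional ratios together, so it was varied. Scaling on the table sums, the upper quartile or a set of GABAergic reference genes (among them *Slc32a1*, *Dlx1* and *Lhx6*) left the same 5 markers past 1.5-fold. These scalings moved every log2 ratio by at most 0.02. No marker lay that near to the limit, so this result could not have differed. Scaling on 9 pan-neuronal genes, which had a median log2 ratio of −0.19, raised every ratio by 0.19 and brought *Calb2* past the limit at 0.59. With that scaling 13.6% of all genes were higher and 3.33% lower. The sign of the ratio was the same under all 5 scalings for 8 of the 10 markers. It turned for *Gad2* and *Cck*, to 0.15 and 0.05 with the pan-neuronal scaling.

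**Figure D3:**
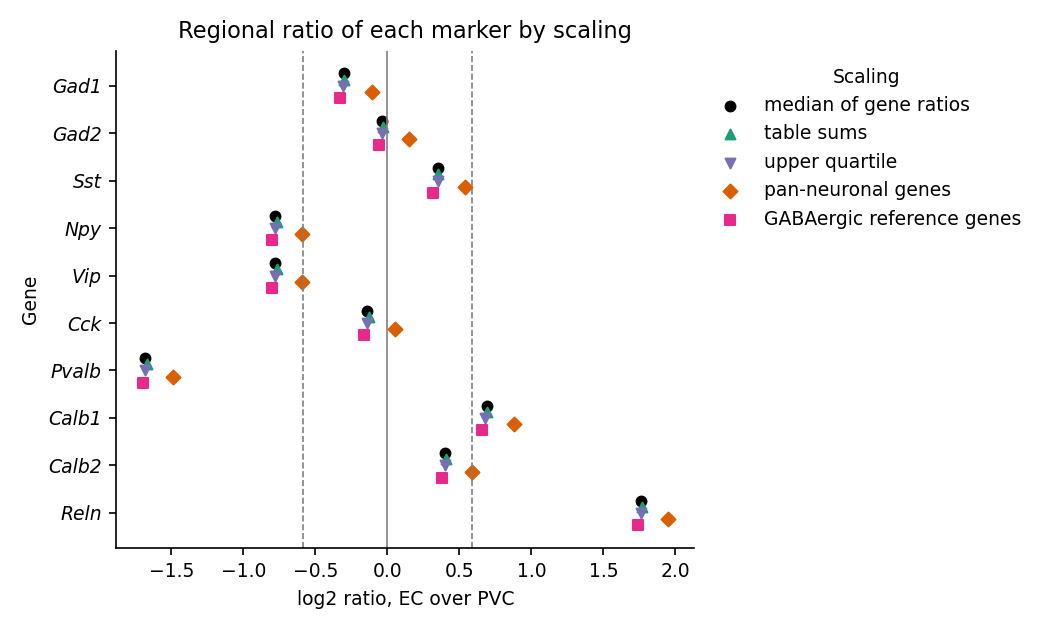
Log2 ratio of EC over PVC of each marker (horizontal axis) under 5 scalings of the regional tables (symbols); dashed lines mark 1.5-fold and the solid line parity. *Reln*, *Calb1*, *Pvalb*, *Vip* and *Npy* lie past a dashed line under every scaling, with *Vip* and *Npy* nearest to it at −0.59 under the pan-neuronal scaling.

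Levels of different genes were compared per kb of exon within a region. The order in the EC was *Sst*, *Cck*, *Npy*, *Gad1*, *Calb1*, *Gad2*, *Vip*, *Reln*, *Calb2* and *Pvalb*. In the PVC it was *Sst*, *Cck*, *Npy*, *Gad1*, *Pvalb*, *Vip*, *Gad2*, *Calb1*, *Calb2* and *Reln*. *Sst* was the highest in both, with a mean normalized count per kb of 13788 in the EC against 5907 in the PVC, above 99.5% and 99.2% of the genes. *Cck* followed at 8766 and 5255. The first 4 places were thus held by the same genes, whereas *Pvalb* went from the tenth place in the EC, at 669 per kb, to the fifth in the PVC, at 1168. *Reln* went the other way, from the eighth place at 947 to the tenth at 153. Its large summed exon length turned the highest EC count into a level per kb that was low among the markers. From the highest to the lowest, the markers spanned 20.6-fold in the EC and 38.7-fold in the PVC. Whether neighbours in this order differ beyond the spread between mice was not tested. With the longest transcript in place of all exons, *Gad1* moved ahead of *Npy* in both regions, and *Reln* ahead of *Gad2* and *Vip* in the EC. The lowest level was then 712 per kb for *Pvalb* in the EC and 259 for *Reln* in the PVC. *Sst* stayed at 13788 and 5907, so the spans of the regions lay closer together.

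The markers lie on 9 chromosomes of the NCBIM37 build, and only *Gad1* and *Gad2* share a chromosome. *Reln* spans chromosome 5 from 21390272 to 21850523 on the minus strand, *Pvalb* chromosome 15 from 78021544 to 78036830 on the minus strand, *Sst* chromosome 16 from 23889667 to 23890930 on the minus strand, and *Calb1* chromosome 4 from 15808411 to 15835211 on the plus strand. *Sst* and *Npy* are short, with 599 and 566 bases of exon, and *Reln* has 19845. No exon of the other 9 markers overlaps an exon of another annotated gene.

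RefSeq start sites were found for 8 of the 10 markers, *Calb1* and *Calb2* being the others, and the 250 bases before each were searched on both strands. Peptide genes of this group are known for cyclic AMP response elements near their start, with the letters TGACGTCA. Capitals mark the shorter form TGACGTC. They also mark the TATA box letters TATAAA and the GC box letters GGGCGG. The sequences of *Sst* and *Vip* are shown because they hold the first of these motifs, and those of *Reln* and *Pvalb* because these genes had the highest and the lowest regional ratio. Coordinates are of the GRCm38.p6 build, not of the build used for counting, and each sequence reads 5′ to 3′ on the strand of the gene.
Sst, chr16:23890845-23891094, minus strand: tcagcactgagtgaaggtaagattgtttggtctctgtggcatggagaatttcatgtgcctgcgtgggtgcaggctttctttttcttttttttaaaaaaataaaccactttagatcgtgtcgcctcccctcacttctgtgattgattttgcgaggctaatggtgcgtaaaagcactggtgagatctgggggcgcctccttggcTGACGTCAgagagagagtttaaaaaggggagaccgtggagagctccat
Vip, chr10:5638968-5639217, plus strand: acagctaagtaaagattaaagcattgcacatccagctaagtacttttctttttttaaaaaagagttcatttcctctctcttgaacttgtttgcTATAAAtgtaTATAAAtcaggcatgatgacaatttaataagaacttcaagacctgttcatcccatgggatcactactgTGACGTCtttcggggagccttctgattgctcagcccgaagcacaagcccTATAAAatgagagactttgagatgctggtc
Reln, chr5:22344706-22344955, minus strand: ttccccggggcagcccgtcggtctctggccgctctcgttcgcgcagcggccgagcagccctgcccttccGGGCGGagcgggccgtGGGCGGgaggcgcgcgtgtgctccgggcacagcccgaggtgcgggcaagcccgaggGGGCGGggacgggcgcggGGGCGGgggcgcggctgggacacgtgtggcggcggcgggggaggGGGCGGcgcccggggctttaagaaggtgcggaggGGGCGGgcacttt
Pvalb, chr15:78206401-78206650, minus strand: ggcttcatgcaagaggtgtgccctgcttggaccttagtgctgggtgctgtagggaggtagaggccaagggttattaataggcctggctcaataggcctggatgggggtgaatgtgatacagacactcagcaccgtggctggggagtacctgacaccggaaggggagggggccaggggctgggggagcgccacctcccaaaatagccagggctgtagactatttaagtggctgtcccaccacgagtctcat

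The full TGACGTCA stands before *Sst*, and 1.55% of all 32851 RefSeq windows of this length hold it. The shorter TGACGTC, which every TGACGTCA contains, stands before *Sst* and *Vip* and in 2.78% of all windows. The regional log2 ratios of these genes were 0.35 and −0.78. GGGCGG occurs 6 times before *Reln*, whose window has a GC content of 80.0%, where the median of all windows is 52.4%. It is also found before *Gad1* and *Npy*, and in 32.7% of all windows. The *Pvalb* window shown holds none of the motifs and has a GC content of 58.4%, and neither does the window at its other start. TATAAA is found before *Gad1* and *Vip* and in 12.4% of all windows. These matches describe the letters only.

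The receptors through which the peptides and reelin act, together with the reelin adaptor gene *Dab1*, were examined in the same way. Of these 16 genes, 14 were above the count minimum. Among the 14, 3 were higher in the EC, 1 was lower and 10 were within 1.5-fold, with a median log2 ratio of 0.13. Of all genes 8.13% were higher and 5.06% lower, and a single lower gene among 14 is near that share. *Vipr2*, a receptor of the *Vip* peptide, had means of 148 in the EC against 23.8 in the PVC (log2 ratio 1.76), opposite in sign to its ligand. *Vipr1*, the other, had means of 1852 and 1359 (log2 ratio −0.43). *Npy2r* had means of 603 and 139 (log2 ratio 1.24), whereas *Npy1r*, the more abundant receptor of neuropeptide Y, had means of 1789 and 1102 (log2 ratio −0.18). *Sstr1* had means of 2861 and 852 (log2 ratio 0.87), and *Sstr2*, *Sstr3* and *Sstr4* lay between −0.08 and 0.11.

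*Cckbr*, the main cholecystokinin receptor of the brain, was the lower gene, with means of 2451 in the EC against 2268 in the PVC (log2 ratio −0.76). *Cckar* was below the minimum, at 0.922 and 0.703. The reelin receptor genes *Lrp8* and *Vldlr*, whose proteins also bind apolipoprotein E, did not share the high ratio of *Reln*. *Lrp8* had means of 6585 and 3241 (log2 ratio 0.15) and *Vldlr* of 5522 and 2565 (log2 ratio 0.23). *Dab1*, the adaptor that carries the reelin signal into the cell, had means of 7132 and 3484 (log2 ratio 0.16).

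**Figure D4:**
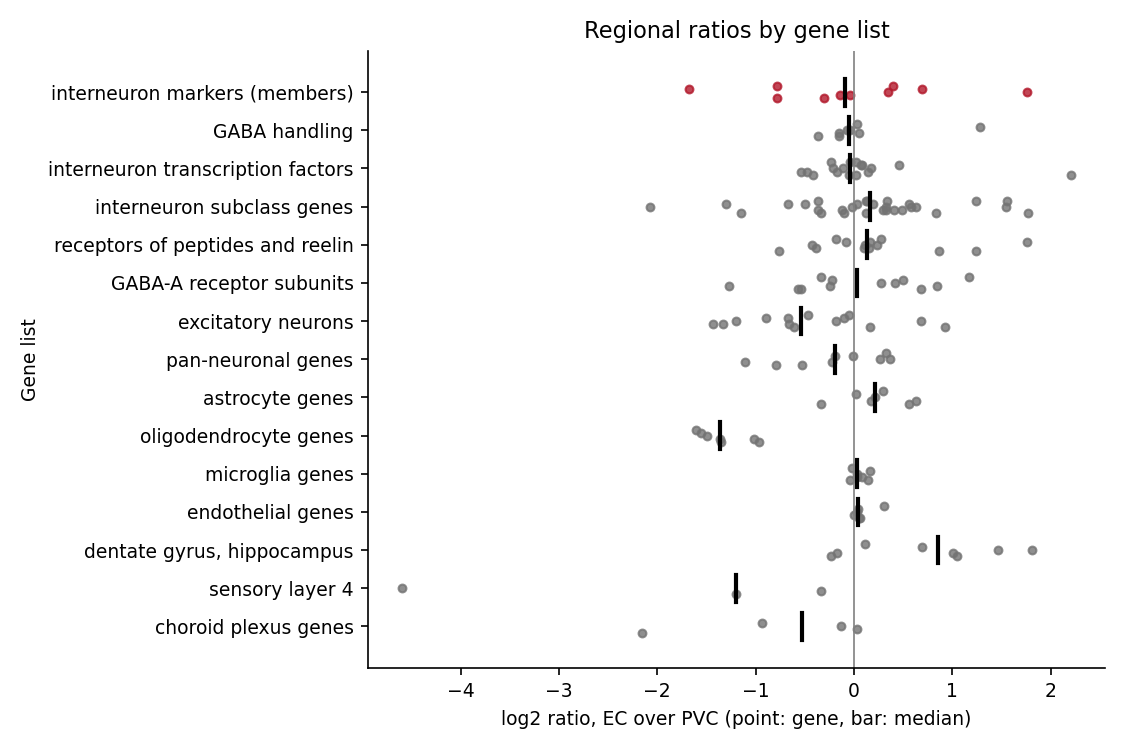
Log2 ratio of EC over PVC (horizontal axis) of every gene above the count minimum in each list (points), with the list's median (bars) and a line at parity; the markers are in red. The GABA handling genes and interneuron transcription factors have 1 gene each outside 1.5-fold, the markers reach from −1.68 to 1.76, and the oligodendrocyte genes all lie below −0.9.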

How the data were processed

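The authors aligned single-end reads of poly(A)+ RNA to mm9 with TopHat2 2.0.6 and Bowtie2 2.0.2.0, counted them per gene with HTSeq and an NCBIM37 annotation, and ran DESeq2 1.10.1 within each region. From these counts the authors deposited, for 31246 genes per region, a mean normalized count over all libraries, which is treated here as a signal. The other columns hold the authors' comparison of *APOE3/4* with *APOE3/3* mice (fold changes, standard errors, statistics and *p*-values) and were not used.

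Depth per library was not analysed here, so the precision of a mean is unknown. Samples were grouped by the region and genotype in their labels. EC means were divided by the median ratio of EC to PVC, and ratios, ranks and levels per kb of exon (NCBIM37, gencode vM1) were computed with Python 3.11.15, numpy 2.4.6 and pandas 2.3.3. The lengths take all exons of a gene in gencode vM1. The authors counted with another, modified annotation that held only protein-coding genes, so the counted length of a gene may differ. Exon lengths were found for 95.6% of the genes above the minimum. *Lamp5*, *Ndnf* and *Map2* were matched through RefSeq synonyms, and *Rbfox3* was not matched. The scaling and the calls were tested on simulated data. Promoter sequences are from RefSeq (GRCm38.p6), and the member proteins were not analysed here.

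All markers are named. From the other lists, named genes are the 3 most abundant, those with the highest and lowest ratio, receptors and ligands of a marker, and reference genes of the scaling. Some genes that this rule takes are not reported here. *Dsp*, *Tdo2* and *Lct* were added after their values were seen. The markers and lists were chosen with earlier results of these data known. Alternatives were 4 other scalings, count minimums of 0 and 100 (with 0.5 added to each mean where there was no minimum), folds of 1.25 and 2, and other lengths.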

Additional observations from a re-analysis of the deposited data

How the results depend on the processing

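The counts of 2 markers higher and 3 lower in the EC stayed within 1.5 times under the 4 other scalings, without a count minimum and with a minimum of 100. All scalings but the pan-neuronal one moved the log2 ratios by at most 0.02, too little to change these counts. With that minimum, which all 10 markers exceed, the shares of all genes they are set against fell from 8.13% to 4.79% higher and from 5.06% to 4.18% lower. At a fold of 2, 1 marker (*Reln*) was higher and 1 (*Pvalb*) lower, beside 3.64% and 2.13% of all genes, and at the smaller fold tried, 4 were higher (*Sst*, *Reln*, *Calb1* and *Calb2*) and 3 lower, beside 16.5% and 10.3% of all genes. The median log2 ratio of the markers went from −0.09 to −0.08 with scaling on the table sums, −0.11 on the GABAergic reference genes and 0.10 on the pan-neuronal genes, by the construction of these scalings. No marker past 1.5-fold changed the sign of its ratio, and none could, because the largest shift was 0.19 and the limit lies at 0.58. The order within a region depended on the length used. With the longest transcript 5 markers in the EC and 8 in the PVC kept their place, and without division by length 2 and 0 did. No paired analysis was possible because the tables hold no values of single mice, and leaving out single libraries was not possible for the same reason.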

Other observations

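Of 30 further genes of interneuron subclasses, 6 were at least 1.5-fold higher in the EC, 4 were lower and 20 lay between, with a median log2 ratio of 0.16, beside 8.13% and 5.06% of all genes past these limits. *Nos1*, the neuronal nitric oxide synthase, had the highest ratio, with mean normalized counts of 10273 in the EC against 1642 in the PVC (log2 ratio 1.77). *Syt2*, a synaptotagmin found in the terminals of *Pvalb* cells, had the lowest, with 1219 and 2780 (log2 ratio −2.07), below that of *Pvalb* itself. The potassium channel genes of fast-spiking cells lay within 1.5-fold, *Kcnc1* with a log2 ratio of −0.33 and *Kcnc2* of −0.12. The cannabinoid receptor gene *Cnr1*, known from terminals of *Cck* interneurons, had means of 13470 and 4901 (log2 ratio 0.58), just inside the limit. Excitatory cells also express some of these genes, *Cnr1* among them, and the values are of the whole tissue.

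Of 12 GABA-A receptor subunits, 3 were higher in the EC, 1 was lower and 8 were within 1.5-fold, beside 8.13% of all genes higher and 5.06% lower. The single lower subunit is near that share. *Gabra5* had the highest ratio, with means of 5124 in the EC against 1244 in the PVC (log2 ratio 1.17), and *Gabrd*, a subunit of extrasynaptic receptors, the lowest, with 1386 and 1822 (log2 ratio −1.27). Of the 4 choroid plexus genes above the minimum, 2 were lower in the EC and none was higher, beside the same shares of all genes. Their median log2 ratio was −0.53. *Ttr* had means of 155 and 378 (log2 ratio −2.16) and *Kl* of 194 and 103 (log2 ratio 0.03). *Enpp2*, the most abundant, had means of 5356 and 5577 (log2 ratio −0.93).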
